A study of Mus musculus with 6 samples.

Results

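The genes described here encode 10 enzymes that make or break down N-acylphosphatidylethanolamines (NAPEs) and the N-acylethanolamines (NAEs) released from them, out of 56923 genes listed in the deposited count tables. They were listed by name for these reactions: the acyltransferases *Hrasls*, *Hrasls5* and *Pla2g16* (newer names *Plaat1*, *Plaat5* and *Plaat3*), the NAPE hydrolases *Napepld* and *Abhd4*, the phosphodiesterases *Gde1*, *Gdpd1* and *Gdpd3*, and the amidases *Faah* and *Naaa*. RNA was measured in prefrontal cortex of 3 *Pla2g4e* knockout samples (KO) and 3 wild-type samples (WT). Per the study's methods, the constitutive knockout was the C57BL/6N-A tm1Brd Pla2g4e tm2a line. Its targeted gene carries a LacZ trap, and the methods predict a null allele from splicing into that trap. The study also reported no PLA2G4E protein in knockout hippocampus by Western blot and no immunostaining in knockout brain sections. Some NAPE and NAE species were lower in knockout cortex in the study. The labels give no age, sex, litter or background strain for either group and do not state that each sample is 1 animal, so the p-values measure the spread between these samples, which may be partly technical. Males and females were both used in the study.

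NAEs are lipid amides of ethanolamine that include the endocannabinoid anandamide and the anti-inflammatory palmitoylethanolamide, and brain makes them from NAPE on demand. NAPE is formed when an acyl chain is moved onto the amine of phosphatidylethanolamine, either by the calcium-dependent enzyme PLA2G4E or by calcium-independent enzymes of the PLAAT family. It is then cut to NAE directly by NAPE-PLD, or stepwise through ABHD4, which removes O-acyl chains, and phosphodiesterases such as GDE1, after which FAAH or NAAA hydrolyses the NAE to a fatty acid and ethanolamine.

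The libraries held 11792463 to 14594230 fragments (read pairs) assigned to genes. Levels are in CPM, the fragments of a gene scaled to a common library size, with the library totals corrected by TMM, which sets the bulk of genes equal between libraries. Counting error excludes duplication during amplification, since the fragments carry no molecular identifiers. *Pla2g4e*, the targeted gene, had 88, 97 and 102 fragments in KO replicates 1 to 3, while WT replicates 1 to 3 held 100, 138 and 168. These were 5.95, 8.12 and 7.97 CPM in KO against 7.84, 11.3 and 13.2 in WT, so the library labelled WT replicate 1 lay inside the range of the KO libraries. On the log2 scale KO over WT was -0.55 (SE 0.21, unadjusted p 0.0205, adjusted p 0.635, limma-voom), and -0.76 (unadjusted p 0.00113) without the library labelled WT replicate 1. The unadjusted p was above 0.05 in limma-voom without KO replicate 1 (-0.39, p 0.0923), without WT replicate 2 (-0.50, p 0.0557) and without WT replicate 3 (-0.39, p 0.0943). Fragments were summed over all exons, and their position relative to the trap was not analysed here. Y-linked transcripts were detected in 4 libraries and not in KO replicate 1 or the library labelled WT replicate 1. Of the 8 listed olfactory bulb genes, 8 were higher in KO in mean, with a summed level of 713.4 CPM in KO replicate 1 against 232.4 to 354.3 CPM in the other 5 libraries. For each tested enzyme the values without KO replicate 1 and without the library labelled WT replicate 1 are therefore given as well.

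None of the 9 enzymes tested passed the adjusted threshold of 0.05 between KO and WT, and their adjusted p-values in limma-voom ran from 0.635 to 0.938. Across all 19084 genes tested 0 passed (0.0%) in limma-voom, 0 in the quasi-likelihood test of edgeR and 1, not an enzyme, in DESeq2. With a term for Y-linked detection in limma-voom 24 genes passed, 0 of them enzymes. In limma-voom without that term, an unadjusted p under 0.05 was found for 1492 genes (7.82%). Of the 9 enzymes, 1 had an unadjusted p under 0.05, *Hrasls*, which was lower in KO (3.44% of all genes were under that threshold and lower, and 4.38% under it and higher). In mean level 4 of the 9 were lower in KO and 5 higher, against 48.1% of all genes lower. Their median log2 fold change was 0.04, against 0.01 over all genes. The groups did not overlap for 1 of the 9, *Gdpd1*, whose KO libraries were all below the WT libraries, as were those of 6.29% of all genes. The remaining member, *Hrasls5*, was below the filter of 6 fragments in at least 1 library and was not tested. The acyltransferases, the hydrolases and the phosphodiesterases each held values in both directions, and the amidases lay close to 0.

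**Figure D1:**
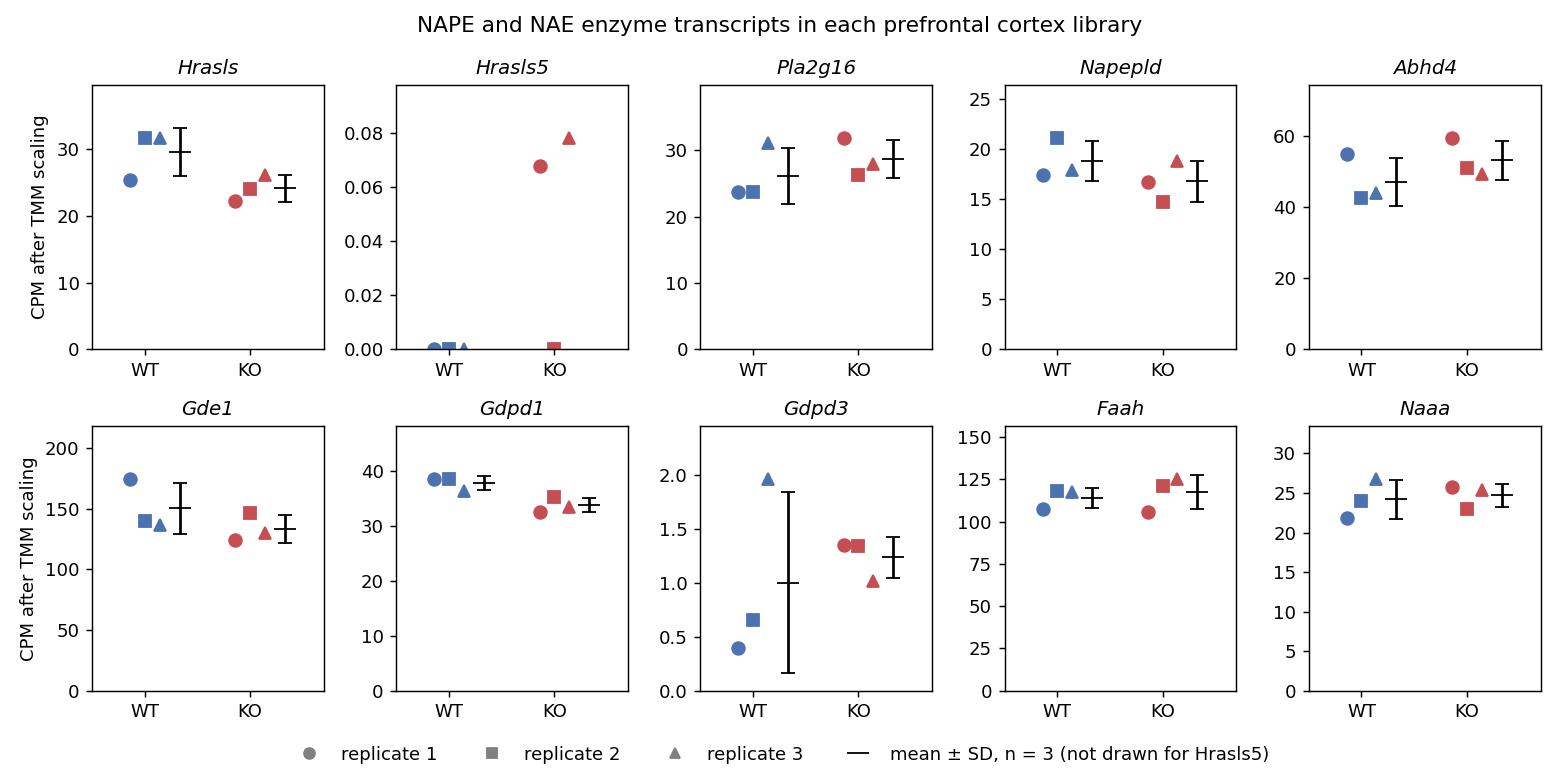
Transcript level of the 10 enzymes in each library, in CPM after TMM scaling on axes that start at 0, with WT in blue, KO in red and the bars at mean ± SD (n = 3). Only for *Gdpd1* do the 3 KO libraries (32.6 to 35.2 CPM) lie apart from the 3 WT libraries (36.3 to 38.5 CPM).

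The PLAAT enzymes move acyl chains between phospholipids without calcium, and also act as phospholipases. *Hrasls* (ENSMUSG00000022525.14, GRCm39 chr16:29028447-29049283, plus strand), whose product makes NAPE, was at 22.2, 24.0 and 26.2 CPM in KO against 25.4, 31.7 and 31.7 in WT. WT replicates 2 and 3 were above every KO library, and the library labelled WT replicate 1 lay between KO replicates 2 and 3. The group means were 24.1 ± 2.0 and 29.6 ± 3.64 CPM (SD, n = 3), a log2 fold change of -0.29 (SE 0.11, unadjusted p 0.021, adjusted p 0.635, limma-voom). The KO to WT ratio was 0.816, with a 95% interval of 0.691 to 0.964, and 2.97% of all genes tested had as low a p-value. Without the library labelled WT replicate 1 the log2 fold change was -0.40 (limma-voom, unadjusted p 0.00236, adjusted 0.819). The unadjusted p was above 0.05 when KO replicate 1 (-0.23, p 0.0819), WT replicate 2 (-0.24, p 0.0775) or WT replicate 3 (-0.24, p 0.0761) was left out of the limma-voom fit. In the direction of the log2 fold change, *Hrasls* was lower in KO under all 16 alternative settings, from -0.40 to -0.23.

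*Pla2g16* (ENSMUSG00000060675.14, GRCm39 chr19:7534824-7565910, plus strand) encodes the PLAAT member best known as the phospholipase A2 of adipose tissue. Its levels were 31.9, 26.3 and 27.9 CPM in KO against 23.7, 23.7 and 31.1 in WT. A pair of WT libraries lay below all KO libraries, while WT replicate 3 was close to the highest KO library. KO over WT gave a log2 fold change of 0.15 (SE 0.12, unadjusted p 0.243, adjusted p 0.745, limma-voom), and the 95% interval of the ratio, 0.924 to 1.33, spans 1. The fold change was 0.06 without KO replicate 1 and 0.08 without the library labelled WT replicate 1. Without WT replicate 3 it was 0.28 (limma-voom, unadjusted p 0.0306, adjusted 0.383). In the 4 libraries with Y-linked transcripts the KO to WT ratio was 0.99, and in the other pair of libraries it was 1.35. Per kb of exon, the ratio of *Hrasls* to *Pla2g16*, a pair chosen after their values were seen, was 1.35, 1.78 and 1.83 in KO against 2.09, 2.61 and 1.99 in WT. No test was made of that ratio.

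*Hrasls5* (ENSMUSG00000024973.18, GRCm39 chr19:7589906-7617007, plus strand), which lies 24.0 kb from *Pla2g16*, encodes a calcium-independent N-acyltransferase known from testis. It had 1, 0 and 1 fragments in KO and 0 in each WT library. In the 4 libraries with a count of 0, up to 3 fragments are allowed, or 0.235 to 0.251 CPM, so that no difference was detectable at this depth and no fold change is given.

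NAPE-PLD is the zinc-dependent phospholipase D that releases NAE from NAPE in a single step. *Napepld* (ENSMUSG00000044968.17, GRCm39 chr5:21867899-21906394, minus strand) was at 16.8, 14.7 and 18.8 CPM in KO against 17.4, 21.1 and 17.9 in WT. The lowest library was from KO and the highest from WT, but KO replicate 3 was above WT replicates 1 and 3. Means were 16.8 ± 2.04 and 18.8 ± 2.02 CPM (SD, n = 3), for a log2 fold change of -0.16 (SE 0.12, unadjusted p 0.211, adjusted p 0.725, limma-voom). The ratio was 0.894, with a 95% interval of 0.744 to 1.08, and no setting gave an unadjusted p under 0.05. The fold change was -0.16 without KO replicate 1 and -0.21 without the library labelled WT replicate 1. It was smaller, at -0.09 without KO replicate 2 and -0.08 without WT replicate 2.

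ABHD4 is a serine hydrolase that removes acyl chains from NAPE and lyso-NAPE, leaving glycerophospho-NAE. *Abhd4* (ENSMUSG00000040997.15, GRCm39 chr14:54491645-54508094, plus strand) had 59.6, 51.2 and 49.3 CPM in KO against 54.95, 42.6 and 44.0 in WT. The library labelled WT replicate 1 was above KO replicates 2 and 3, and the other WT libraries were below every KO library. The difference on the log2 scale was 0.18 (SE 0.11, unadjusted p 0.109, adjusted p 0.662, limma-voom), with a ratio of 1.14 and a 95% interval of 0.968 to 1.33. It was 0.10 without KO replicate 1 and 0.30 (unadjusted p 0.0117, adjusted 0.819) without the library labelled WT replicate 1. The KO to WT ratio was 1.16 in libraries with Y-linked transcripts (2 a group) and 1.08 in those without (1 a group). The term for Y-linked detection gave the same log2 fold change with an unadjusted p of 0.0272 and an adjusted p of 0.428 in limma-voom.

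GDE1, GDPD1 and GDPD3 are phosphodiesterases of the glycerophosphodiester family. GDE1 releases NAE from glycerophospho-NAE, and GDPD1 and GDPD3 act as lysophospholipases D on lyso-NAPE and lysophosphatidylcholine. *Gde1* (ENSMUSG00000033917.16, GRCm39 chr7:118287768-118305001, minus strand) was the most abundant of the 10 transcripts, with 124.3, 146.6 and 130.3 CPM in KO against 174.5, 140.1 and 136.8 in WT. The library labelled WT replicate 1 was the highest, and KO replicate 2 was above the other WT libraries. KO over WT was -0.17 on the log2 scale (SE 0.10, unadjusted p 0.109, adjusted p 0.662, limma-voom), and the 95% interval of the ratio was 0.771 to 1.03. The log2 fold change was -0.24 without KO replicate 2 (limma-voom, unadjusted p 0.046, adjusted 0.664). Without WT replicate 3 it was -0.23 (limma-voom, unadjusted p 0.0475, adjusted 0.417). It was -0.11 without KO replicate 1 and -0.05 without the library labelled WT replicate 1, and in the 4 libraries with Y-linked transcripts the group means were both 138.5 CPM. The lower mean of *Gde1* in KO thus rested largely on that library. Of the exons of *Gde1*, 13.5% are shared with *Gm45236* on the opposite strand, and the libraries were counted by strand.

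*Gdpd1* (ENSMUSG00000061666.7, GRCm39 chr11:86924693-86964888, minus strand) was at 32.6, 35.2 and 33.5 CPM in KO against 38.5, 38.5 and 36.3 in WT. The highest KO library was below the lowest WT library, the one such case among the enzymes. Means were 33.8 ± 1.32 and 37.8 ± 1.24 CPM (SD, n = 3), the smallest relative spread of the 9 tested enzymes (coefficients of variation 3.90% and 3.27%), below the counting error of 4.67% that the fragment numbers alone would give. This gave a log2 fold change of -0.16 (SE 0.08, unadjusted p 0.0588, adjusted p 0.637, limma-voom). The ratio was 0.892 and its 95% interval reached from 0.792 to 1.005. It was lower in KO under all 16 alternatives, from -0.20 to -0.12 on the log2 scale, with -0.14 without KO replicate 1 and -0.15 without the library labelled WT replicate 1.

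*Gdpd3* (ENSMUSG00000030703.9, GRCm39 chr7:126365506-126374821, plus strand) was the lowest of the tested enzymes, with 20, 16 and 13 fragments in KO against 5, 8 and 25 in WT. These were 1.35, 1.34 and 1.02 CPM in KO against 0.392, 0.655 and 1.96 in WT, so WT held both the lowest and the highest libraries. The log2 fold change of 0.58 had an SE of 0.49 (unadjusted p 0.259, adjusted p 0.756, limma-voom), and the 95% interval of the ratio, 0.713 to 3.15, was the widest of the 9. The spread of the WT libraries (coefficient of variation 83.9%) was beyond the 26.3% that counting alone would give. The fold change was 0.51 without KO replicate 1, 0.09 without the library labelled WT replicate 1 and 1.21 without WT replicate 3 (limma-voom, unadjusted p 0.0339, adjusted 0.389). It was 0.30 in edgeR's quasi-likelihood test and in DESeq2, 0.32 with the replicate number as a block and 0.01 in the 4 libraries with Y-linked transcripts. The KO to WT ratio of mean CPM was 0.9 in those 4 libraries and 3.45 in the other pair. Part of its exons, 13.6%, overlaps *Gm9967* on the opposite strand.

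The promoter windows of *Gde1* and *Gdpd3* are shown because these were the highest and the lowest tested members of the same enzyme family on the same chromosome. Each is the 250 bases before the start of the gene in RefSeq (GRCm38.p6), 5′ to 3′ on the gene's strand, in lower case with the dinucleotide CG in capitals. The *Gde1* window (chr7:118705739-118705988, minus strand) holds 14 CG and the *Gdpd3* window (chr7:126766164-126766413, plus strand) holds 6.
Gde1: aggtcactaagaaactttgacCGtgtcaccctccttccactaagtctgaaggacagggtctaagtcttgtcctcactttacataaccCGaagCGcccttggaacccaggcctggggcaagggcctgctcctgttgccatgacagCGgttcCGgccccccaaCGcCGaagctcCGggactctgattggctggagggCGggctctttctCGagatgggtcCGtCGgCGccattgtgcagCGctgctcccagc
Gdpd3: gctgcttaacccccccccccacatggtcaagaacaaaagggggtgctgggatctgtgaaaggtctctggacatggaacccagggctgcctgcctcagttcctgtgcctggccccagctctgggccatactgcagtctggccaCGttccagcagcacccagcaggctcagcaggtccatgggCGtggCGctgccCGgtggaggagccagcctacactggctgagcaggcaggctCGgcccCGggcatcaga

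CG, which reads the same on both strands, was counted in the windows of 9 of the 10 genes (12 windows). The median was 6 CG over all 32851 windows. With only the window of most CG taken for each gene, it was 18 over genes at 5 CPM or more and 3 over genes under 1 CPM. *Napepld* had 21 CG, *Gdpd1* 18, *Naaa* 10 and *Faah* 9, and the windows of *Abhd4* had 20 and 15. Those of *Hrasls* had 15 and 4 and those of *Pla2g16* 7 and 8. *Faah* thus had fewer CG than *Napepld* at a higher transcript level, and the order of the levels was not that of the CG counts. As many CG as in the *Gde1* window or fewer were found in 72.7% of all windows, and 53.7% had no more than the *Gdpd3* window.

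FAAH, a membrane serine hydrolase, is the main enzyme that ends the action of anandamide in brain. *Faah* (ENSMUSG00000034171.14, GRCm39 chr4:115824342-115875123, minus strand) had 106.0, 121.4 and 125.2 CPM in KO against 107.2, 118.0 and 117.3 in WT. Replicate 1 was the lowest library of each group, and the ranges of the groups lay almost on top of each other. Means were 117.5 ± 10.2 and 114.2 ± 6.05 CPM (SD, n = 3), and the log2 fold change was 0.04 (SE 0.08, unadjusted p 0.64, adjusted p 0.91, limma-voom). The 95% interval of the ratio was 0.912 to 1.16. The fold change was 0.11 without KO replicate 1 and -0.01 without the library labelled WT replicate 1.

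NAAA is the lysosomal acid amidase, which prefers palmitoylethanolamide and is known from macrophages. *Naaa* (ENSMUSG00000029413.15, GRCm39 chr5:92405518-92426029, minus strand) was at 25.8, 23.0 and 25.4 CPM in KO against 21.9, 24.0 and 26.8 in WT. The lowest and the highest library both belonged to WT. The log2 fold change was 0.04 (SE 0.10, unadjusted p 0.721, adjusted p 0.938, limma-voom), with a ratio of 1.03 and a 95% interval of 0.880 to 1.20. It was 0.01 without KO replicate 1 and -0.03 without the library labelled WT replicate 1. Per kb of exon, the *Faah* to *Naaa* ratio was 1.95, 2.5 and 2.34 in KO against 2.33, 2.34 and 2.08 in WT, and the ranges overlapped. That of *Napepld* to *Faah* was 0.313, 0.241 and 0.298 in KO against 0.321, 0.354 and 0.302 in WT. WT replicate 3 was below KO replicate 1 in the latter ratio. Both pairs were chosen after their values were seen and were not tested.

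**Figure D2:**
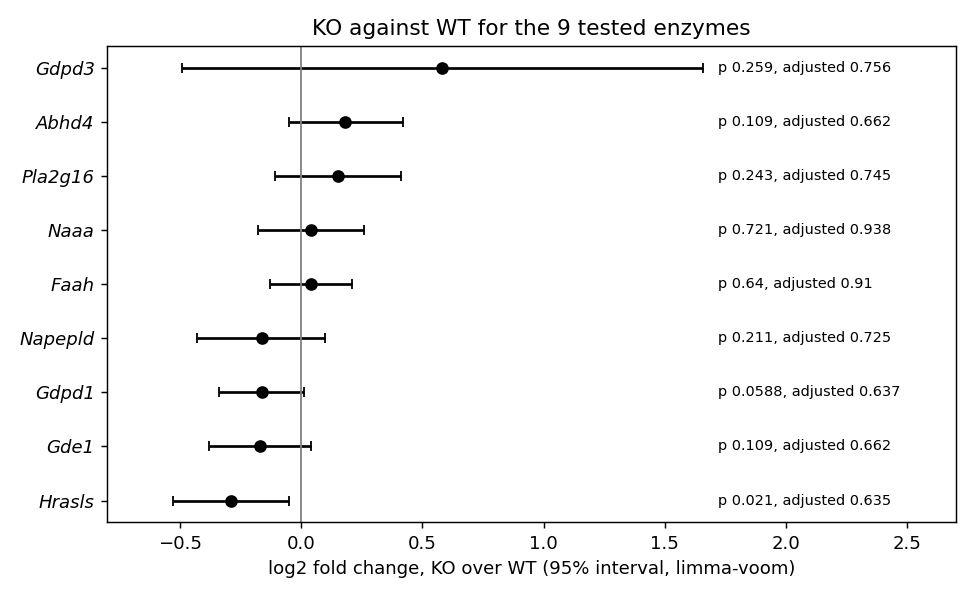
Log2 fold change of KO over WT for the 9 tested enzymes (points) with the 95% interval of limma-voom (bars) and the unadjusted and adjusted p-values. The interval of *Hrasls* lies below 0, and that of *Gdpd3* is by far the widest.

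The 8 enzymes at 5 CPM or more had 176 to 2226 fragments in each library. Their 95% intervals of the KO to WT ratio, which rest on the spread between 3 libraries a group, together spanned 0.691 to 1.33, so that none of these intervals reached a halving or a doubling. Their log2 fold changes, -0.29 to 0.18, compare with a median absolute value of 0.09 over the 9317 genes at 10 to 200 CPM, for which the median SE was 0.09 as well. Without the library labelled WT replicate 1, 5.38% of all genes and 2 enzymes, *Hrasls* and *Abhd4*, had an unadjusted p under 0.05. In that fit 6 enzymes were lower in KO, with *Faah* and *Naaa* added to the 4. Without WT replicate 3 it was 11.8% of all genes and 4 enzymes, namely *Pla2g16*, *Gde1*, *Gdpd1* and *Gdpd3*, and not *Hrasls*. Without KO replicate 1 it was 4.44% of all genes and none of the enzymes. The count of enzymes was 2, again *Hrasls* and *Abhd4*, in the 4 libraries with Y-linked transcripts (3.77% of all genes), with a term for Y-linked detection (10.6%) and with the replicate number as a block (8.87%). In each of these fits 0 enzymes passed the adjusted threshold.

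**Figure D3:**
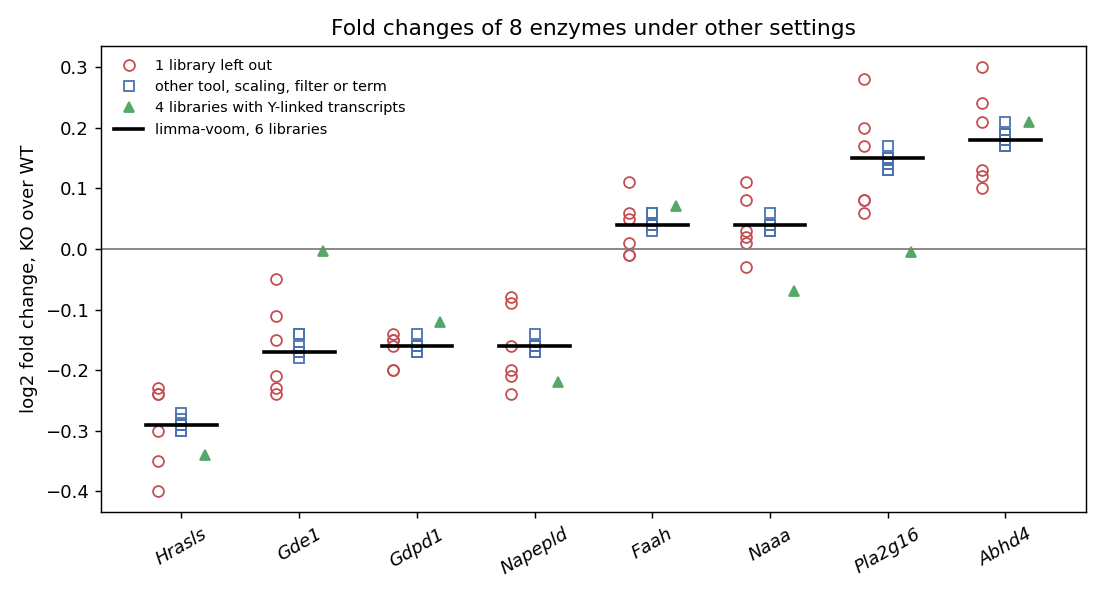
Log2 fold change of KO over WT for 8 enzymes in the limma-voom fit of 6 libraries (black lines) and under the alternatives: 1 library left out (red circles), another tool, scaling, filter or term (blue squares) and the 4 libraries with Y-linked transcripts (green triangles). *Hrasls*, *Gdpd1*, *Gde1* and *Napepld* stay below 0 and *Abhd4* above it, while *Faah*, *Naaa* and *Pla2g16* fall on both sides. In the 4 libraries with Y-linked transcripts, *Gde1* (-0.0033) and *Pla2g16* (-0.0044) both lie next to 0. Leaving out a library spreads the values more than another tool, scaling, filter or term does.

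Between genes, levels were compared as CPM per kb of summed exon length, averaged over the 6 libraries. *Gde1* stood at 84.0, above every other enzyme in 6 of 6 libraries. *Abhd4* (15.3), *Gdpd1* (15.3) and *Faah* (14.8) followed, and the ranges of neighbours in that order overlapped. *Hrasls* was at 8.17 and *Naaa* at 6.58, with overlapping ranges, and so were *Napepld* at 4.50 and *Pla2g16* at 4.29. *Gdpd3* was at 0.512 and *Hrasls5* at 0.0173. *Pla2g4e* itself was at 1.30 over the 6 libraries, 1.55 in WT and 1.055 in KO, and in WT as in KO it was below *Hrasls* and *Pla2g16* on this scale, which is a count of transcripts and not of protein or activity. The per kb level of *Hrasls* over that of *Pla2g4e* was 7.89, 6.27 and 6.96 in KO against 6.86, 5.94 and 5.09 in WT, again without a test.

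Part of this order depended on the length used. So did the size of the per kb ratios between genes given here, which used the summed exon length. The length of a gene is the same in all libraries, so the comparison of KO with WT in these ratios did not. With the length of the longest principal transcript, an alternative chosen after seeing the data, *Faah* was second at 30.3 CPM per kb, followed by *Abhd4* at 20.04, *Gdpd1* at 15.3, *Naaa* at 10.1, *Hrasls* at 9.21 and *Pla2g16* at 7.78. *Gde1* remained the highest at 89.8, and *Napepld*, at 4.50, and *Gdpd3*, at 0.975, were the lowest of the tested enzymes. On this scale the ranges of *Naaa* and *Hrasls* overlapped, as did those of *Hrasls* and *Pla2g16*.

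**Figure D4:**
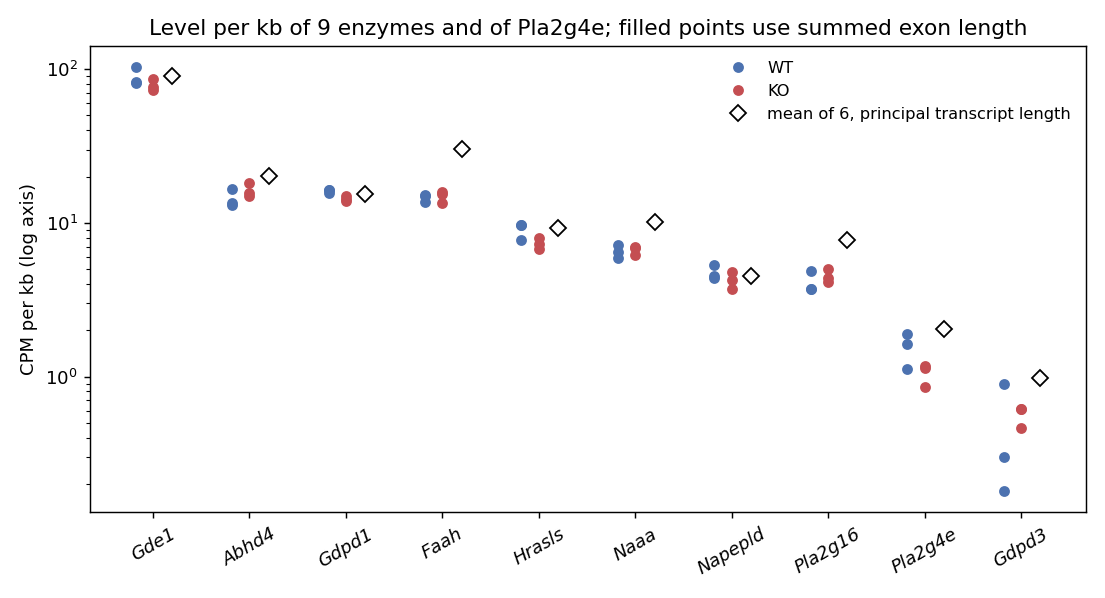
Level of 9 enzymes and of *Pla2g4e* in CPM per kb on a log axis, for each WT (blue) and KO (red) library with the summed exon length, and as the mean of 6 libraries with the principal transcript length (open diamonds). *Gde1* is highest with either length, and *Faah* moves most, from 14.8 to 30.3.

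A further 21 genes of the pathway were taken from a list of NAE receptors, carriers, oxidases and related hydrolases that also holds *Pla2g4e*. Of these, 19 were tested and 0 passed the adjusted threshold. Some passed the filter of 6 fragments through 1 group alone, *Gdpd4* through KO and *Cnr2*, *Trpv1* and *Gpr55* through WT, so that their direction was tied to the filter. Of the other 15, 10 were lower in KO in mean, and 3 had an unadjusted p under 0.05, against 7.82% of all genes. One was *Pla2g4e*. *Fabp5*, which encodes a fatty acid binding protein that carries anandamide to FAAH, was at 42.9, 40.5 and 37.1 CPM in KO against 50.95, 44.6 and 44.35 in WT, without overlap (log2 fold change -0.21, SE 0.09, unadjusted p 0.0315, adjusted p 0.635, limma-voom). The unadjusted p of *Fabp5* was above 0.05 in limma-voom without the library labelled WT replicate 1 (-0.15, p 0.129), KO replicate 2 (p 0.0516) or KO replicate 3 (-0.16, p 0.139). *Cnr1*, the CB1 cannabinoid receptor at which anandamide acts, was at 185.4, 209.0 and 187.0 CPM in KO against 231.7, 210.7 and 207.4 in WT. KO replicate 2 was above WT replicate 3, and the log2 fold change was -0.16 (SE 0.07, unadjusted p 0.0429, adjusted p 0.635, limma-voom). Its unadjusted p was also above 0.05 without the library labelled WT replicate 1 (-0.11, p 0.163), WT replicate 2 (p 0.0538), KO replicate 1 (-0.13, p 0.119) or KO replicate 3 (-0.14, p 0.135). *Gdpd4*, of the same family as *Gdpd1*, had 53, 6 and 6 fragments in KO against 2, 1 and 3 in WT. Since it was tested only because of its KO libraries, its log2 fold change, 2.51 (SE 1.06, unadjusted p 0.0345, limma-voom), is given as a description. It was 1.48 (unadjusted p 0.0592) without KO replicate 1, its highest library. *Ppara*, the nuclear receptor for palmitoylethanolamide and oleoylethanolamide, did not overlap between groups, at 2.704, 2.68 and 3.12 CPM in KO against 2.35, 1.96 and 2.12 in WT (log2 fold change 0.39, SE 0.23, unadjusted p 0.12, limma-voom). Among the 15, groups without overlap were thus found for 2 genes, *Fabp5* with KO below WT (6.29% of all genes) and *Ppara* with KO above WT (6.72%). The lysosomal hydrolase gene *Asah1*, a relative of *Naaa*, had a log2 fold change of 0.00 (SE 0.07). *Gpr119* had no fragment in any library, *Alox15* had 3 in WT replicate 3 only, and neither was tested.

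In bulk tissue, fewer cells of a type and less RNA per cell cannot be told apart. The 8 listed markers of cortical excitatory neurons summed to 5376 to 6412 CPM in KO and 5821 to 6340 CPM in WT, and 8 of 8 were lower in KO in mean, where 48.1% of all genes were lower. Of the striatal neuron markers 10 of 10 were higher in KO in mean, with sums of 350.2 to 460.1 CPM in KO and 261.9 to 434.9 CPM in WT. Oligodendrocyte markers (9 of 10 higher) summed to 2343 to 2721 CPM in KO and 1814 to 3009 CPM in WT, and in WT replicate 3, where *Pla2g16* and *Naaa* were at their WT maximum, they were highest. Within KO it was the reverse, with the lowest sum, 2343 CPM, in replicate 1, where both enzymes were at their KO maximum. Astrocyte markers (10 of 10 higher) summed to 4910 to 5429 CPM in KO and 4641 to 5400 CPM in WT. They were highest in replicate 1 of each group, in which *Abhd4* was also highest and *Hrasls* and *Faah* lowest. The olfactory bulb genes, 8 of 8 higher in KO in mean with a median log2 fold change of 1.12, were likewise highest in replicate 1 of each group, where they summed to 713.4 CPM (KO) and 354.3 CPM (WT). Markers of inhibitory neurons (5 of 8 lower) were highest in the same libraries, with a sum of 1090 CPM in KO replicate 1. The sum was 931.6 CPM in its WT counterpart and 687.9 to 748.3 CPM in the other 4 libraries. Sums for microglia (7 of 10 lower) were 396.2 to 426.8 CPM in KO and 375.7 to 471 CPM in WT. Endothelial sums (7 of 10 lower) were 283.7 to 302.9 CPM in KO and 265.4 to 336.2 CPM in WT. Meningeal fibroblast sums (7 of 8 genes higher) had both their lowest value, 56.4 CPM, and their highest, 130.4 CPM, in WT. Choroid plexus markers summed to 6.87 to 15.8 CPM in KO and 7.77 to 35.6 CPM in WT, with 3 of 5 tested genes higher and *Sostdc1* at 3 fragments or fewer. An unadjusted p under 0.05 (7.82% of all genes) was found for 2 of 8 excitatory, 3 of 8 inhibitory and 2 of 8 olfactory bulb genes, and for 1 of 10 each of the striatal, oligodendrocyte and microglia genes. The other lists held 0. None of the lists held a gene that passed the adjusted threshold, and the part of cell composition in the values of the enzymes was not tested.

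Among the 11945 genes at 5 CPM or more, the genes most like each enzyme over the 6 libraries were taken by Pearson's r of their levels, as a description without a test. They were *Tbc1d25* (0.984) and *Optn* (0.978) for *Hrasls*, *Trdmt1* (0.996) and *Rhbdf1* (0.993) for *Pla2g16*, and *Pdk2* (0.987) and *Tada2b* (0.984) for *Napepld*. For *Abhd4* they were *Ganab* (0.991) and *Ampd2* (0.99), for *Gde1* *Eif2s1* (0.995) and *Rgs17* (0.993), and for *Gdpd1* *Ergic3* (0.997) and *Polr2c* (0.996). *Faah* was most like *Trpm2* (0.983) and *Zscan18* (0.981), and *Naaa* most like *Tnip2* (0.99) and *Inpp5e* (0.99). None of these was another enzyme of the pathway, and over 6 libraries the best of so many genes reaches a high r.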

How the data were processed

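RNA-seq of polyadenylated RNA from prefrontal cortex was available for 3 KO and 3 WT samples, grouped by title. The deposited values are raw counts of fragments per gene. Per the submitters' processing notes and the file headers, the authors aligned reads with STAR 2.7.9a and counted fragments over exons with featureCounts 1.6.0 (paired-end, reverse-stranded) on GENCODE M31 of GRCm39, without fragments that map to several places or genes. The study's methods name an earlier build, so gene coordinates are those of the files. Symbols were matched by gene identifier to an earlier GENCODE release. Promoter windows are from RefSeq on GRCm38.p6.

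The design follows the study's methods. Of 29943 genes with a fragment, 19084 with at least 6 fragments in 1 library were tested, after TMM (trimmed mean of M-values) scaling in edgeR 4.0.16, with voom and limma 3.58.1 in R 4.3.3, two-sided, and p-values were adjusted by Benjamini-Hochberg over these genes (threshold 0.05). The enzymes and the gene lists were chosen with earlier results of these data known. The genes named are the 10 enzymes, *Pla2g4e*, the pathway genes with an unadjusted p under 0.05, and the 2 genes most like each enzyme at 5 CPM or more. *Ppara*, *Asah1*, *Cnr2*, *Trpv1*, *Gpr55*, *Gpr119* and *Alox15* were named after their values were seen. *Gm45236* and *Gm9967* are named for their overlap with an enzyme gene, and *Sostdc1* as a marker at or near 0. As alternatives, each library was left out in turn, DESeq2 1.42.0 or edgeR's quasi-likelihood test replaced limma, and scaling, filter and library weights were varied. Further fits had a block for the replicate number, a term for Y-linked detection (at least 1 CPM), or only the 4 libraries with it. The scripts were tested on simulated counts. Library totals ranged from 11792463 to 14594230 fragments.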

Additional observations from a re-analysis of the deposited data

How the results depend on the processing

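No enzyme passed the adjusted threshold under any of the 16 alternatives, and the lowest adjusted p of an enzyme was 0.338 (*Hrasls*, term for Y-linked detection). Over all genes the adjusted count was 1 in DESeq2, 24 with the term for Y-linked detection, 3 in the 4 libraries with Y-linked transcripts and 0 to 1 with a library left out. The unadjusted count over all genes was 902 in DESeq2, 696 in those 4 libraries and 782 to 2239 with a library left out.

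Enzymes with an unadjusted p under 0.05 numbered 2 (*Hrasls* and *Abhd4*) with the replicate block, with the Y-linked term and in the 4 libraries, and 0 to 4 with a library left out, where 4 to 6 were lower in KO. Of the 19 pathway genes tested, 4 had an unadjusted p under 0.05 in the main comparison, where 7.82% of all genes did. One was *Gdpd4*, tested only because of its KO libraries, and 3 were among the 15 that passed the filter through both groups. The count was 2 in the 4 libraries (3.77% of all genes), 6 with the replicate block (8.87%) and 6 with the Y-linked term (10.6%). It was 2 with library totals alone (1489 genes in all), 6 with no filter beyond 1 count (2115) and 2 to 6 with a library left out (782 to 2239). These counts may include genes that passed the filter through 1 group alone, so no result on the pathway is drawn from them. In the 4 libraries *Pla2g16* (-0.0044) and *Naaa* (-0.07) changed sign. *Gde1* kept its sign there but, at -0.0033, was also next to 0. With a library left out *Faah* ranged from -0.01 to 0.11 and *Naaa* from -0.03 to 0.11. The cause of these shifts was not tested.

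Deviations of same-numbered libraries correlated at 0.356, 0.0887 and -0.032. No values for differently numbered libraries are set beside these, so they do not settle whether the numbers pair the samples. The main comparison took no pairing. With the replicate block 0 genes passed and 1693 had an unadjusted p under 0.05. Level per kb with the principal transcript length moved for *Pla2g16* (7.78), *Abhd4* (20.04), *Gdpd3* (0.975), *Faah* (30.3) and *Naaa* (10.1). Depth limited *Hrasls5*, which had at most 1 fragment in a library.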
